A study of Mus musculus with 8 samples.

Results

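The 33 genes described here encode the small RNA machinery of mouse full-grown oocytes: the enzymes that make microRNAs and small interfering RNAs (siRNAs), the Argonaute proteins that carry them, and the PIWI proteins with their Tudor-domain and germ granule partners. They were chosen by name, as the rows of a table of 35976 gene symbols that carry 1 of 33 listed symbols. All 33 were in the table. Polyadenylated RNA was sequenced from 8 pools of about 20 oocytes each, with 2 libraries per group. The groups were oocytes labelled as a double knockout (DKO) of H2A.Z.1 and H2A.Z.2, their H2A.Z controls labelled wild type, Mll2 knockout (KO) oocytes, and their Mll2 wild types (WT). H2A.Z replaces the core histone H2A in some nucleosomes, and MLL2, encoded by Kmt2b, methylates lysine 4 of histone H3. Neither the driver of the deletions nor the strain or age of the animals was stated in the labels used. The comparisons address which small RNA pathway transcripts differ in each mutant.

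As background, Drosha with its partner Dgcr8 cuts microRNA precursors in the nucleus, Dicer1 cuts hairpins and long double-stranded RNA in the cytoplasm, and Argonaute proteins use the resulting small RNAs to repress matching transcripts. In mouse oocytes the siRNA branch carries much of the work, with a shortened Dicer made from a promoter inside a retrotransposon, and loss of Dicer1 or Ago2 in oocytes disturbs meiosis. The piRNA branch loads longer small RNAs onto PIWI proteins in germ granules and silences retrotransposons. In mice it is required in the male germline, and most of its single mutants leave females fertile. Small RNAs and retrotransposon transcripts were not analysed here, and a gene count pools all isoforms of Dicer1.

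Mael and Asz1 fell in Mll2 KO but did not pass the test under the DKO label, whereas Dicer1 and Gtsf1 rose under the DKO label but did not pass the test in Mll2 KO. Their promoters are printed to show how widely CpG content varied among these members. Each is the 250 bases before the RefSeq gene start on GRCm38.p6, all on the minus strand and written 5′ to 3′, with CpG dinucleotides in capitals. The regions are chr1:166238745-166238994 for Mael, chr6:18109062-18109311 for Asz1, chr12:104751953-104752202 for Dicer1 and chr15:103430428-103430677 for Gtsf1.
Mael: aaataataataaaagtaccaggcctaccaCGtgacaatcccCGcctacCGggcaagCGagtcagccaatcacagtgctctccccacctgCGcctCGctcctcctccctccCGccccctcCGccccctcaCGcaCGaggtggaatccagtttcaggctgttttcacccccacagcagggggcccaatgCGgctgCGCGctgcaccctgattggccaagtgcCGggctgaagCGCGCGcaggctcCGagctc
Asz1: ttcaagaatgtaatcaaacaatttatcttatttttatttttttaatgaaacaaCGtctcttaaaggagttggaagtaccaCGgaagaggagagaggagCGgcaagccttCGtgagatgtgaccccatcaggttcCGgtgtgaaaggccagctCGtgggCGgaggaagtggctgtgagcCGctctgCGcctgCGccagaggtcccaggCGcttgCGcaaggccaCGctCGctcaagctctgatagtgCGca
Dicer1: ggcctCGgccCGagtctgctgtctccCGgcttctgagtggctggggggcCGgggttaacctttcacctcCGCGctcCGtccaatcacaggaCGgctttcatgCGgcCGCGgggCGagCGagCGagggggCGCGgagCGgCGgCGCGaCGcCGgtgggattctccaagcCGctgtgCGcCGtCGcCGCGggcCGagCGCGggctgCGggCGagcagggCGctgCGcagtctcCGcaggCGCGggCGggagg
Gtsf1: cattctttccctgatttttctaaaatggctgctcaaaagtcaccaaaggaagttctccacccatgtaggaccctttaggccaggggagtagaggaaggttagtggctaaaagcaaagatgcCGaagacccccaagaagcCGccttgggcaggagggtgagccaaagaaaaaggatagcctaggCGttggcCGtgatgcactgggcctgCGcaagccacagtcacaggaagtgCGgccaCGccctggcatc
They hold 18, 15, 39 and 7 CpG dinucleotides in the order printed, against a median of 6 over 32841 mouse promoters of the same length. Oocytes can start transcription elsewhere, as they do for Dicer1.

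RefSeq promoters were matched for 28 of the 33 members, and the first was taken for the 8 members with several. Of the 28, 19 had a GC content of at least 50% with a ratio of observed to expected CpG of at least 0.6, a combination found in 31% of all promoters. The median CpG count over all 28 was 18.5. Among members lower in Mll2 KO, 4 of 7 with a promoter met that definition, with CpG counts from 3 in Tdrd7 to 27 in Ago3. Among members higher under the DKO label it was 3 of 6, from 7 in Gtsf1 to 40 in Tdrd5. Counting any listed promoter, these became 6 of 7 and 4 of 6, since other promoters of Tdrd7 hold 28 and 29 CpG and the second of Tdrd1 holds 22. The sequence CANNTG, the E-box, was present in 18 of 28 members and in 66.2% of all promoters. The sequence AACNG of MYB factors, read on both strands, was present in 17 of 28 members and in 74.2% of all promoters.

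Totals ran from 20309233 to 30087863 counts per library, and the members took 90232 to 128574 of these. Values below are CPM, counts relative to the library total after edgeR's TMM scaling. Genes were tested with edgeR's quasi-likelihood test, and p-values were adjusted over the 16847 genes that passed a filter on low counts. Kmt2b, targeted in the Mll2 line, measured 8.73 and 9.28 CPM in Mll2 KO, against 41.9 and 42.4 CPM in Mll2 WT. H2afz, which encodes H2A.Z.1, measured 322 and 317 CPM in the libraries labelled DKO, against 23.9 and 30 CPM in H2A.Z controls, which goes against the label. H2afv, which encodes H2A.Z.2, did the same at 285 and 294 CPM, against 107.9 and 107.2 CPM. Directions in that line are therefore those of the label. H2afz was also higher in Mll2 KO, at 19.4 and 15 CPM against 7.04 and 7.09 CPM in Mll2 WT (log2 1.28, adjusted p = 1.21e-05). H2afv did not pass there, at 93.7 and 106 CPM against 86.8 and 88.2 CPM in Mll2 WT (log2 0.19, adjusted p = 0.165). For both genes the H2A.Z controls lay closer to Mll2 WT than the libraries labelled DKO did. Whether the label was exchanged was not tested. Kmt2b was higher under the DKO label, at 20.4 and 20.6 CPM against 13.7 and 15.4 CPM in H2A.Z controls (log2 0.49, adjusted p = 0.018). The 10 oocyte markers were all tested and summed to 17764 to 24026 CPM in every library. Of these 10, 1 was called higher under the DKO label and 1, Zp2, lower in Mll2 KO. That is 10% in each comparison, against 30.9% and 30.6% of all tested genes. Zp2 measured 1644 and 1289 CPM in Mll2 KO, against 1886 and 3290 CPM in Mll2 WT (log2 -0.82 ± 0.25, adjusted p = 0.0363). The 10 granulosa and cumulus cell markers summed to 124.5 and 126.8 CPM under the DKO label against 94.2 and 94.4 CPM in H2A.Z controls, and to 100.8 and 100.6 CPM in Mll2 KO against 91.6 and 93.9 CPM in Mll2 WT. Of them 7 were tested. Under the DKO label 2 of the 7 were called higher and 0 lower, which is 28.6%, against 30.9% of all tested genes. Amh was at 0 in 6 of 8 libraries and at most 0.0517 CPM, whereas other markers of the list were expressed. The other cell type lists summed to at most 6.3 CPM for theca and stroma and at most 42 CPM for blood, immune and endothelial cells, of which Pecam1 took up to 40.8 CPM. Most of the granulosa difference under the DKO label was Fshr, the follicle-stimulating hormone receptor, at 18.7 and 18.9 CPM against 1.29 and 0.598 CPM in H2A.Z controls. In Mll2 KO Fshr measured 7.25 and 7.70 CPM, against 0.992 and 0.594 CPM in Mll2 WT, and Nr5a2 rose as well (log2 0.75, adjusted p = 0.00023), whereas Cyp19a1 and Kitl fell (log2 -0.78 and -0.83, adjusted p = 0.000171 and 0.00496). In Mll2 KO 2 of the 7 granulosa markers tested were called higher and 2 lower, which is 57.1%, against 30.6% of all tested genes. The part of these markers in the results below was not tested. Each library was made from pooled oocytes, so fewer transcribing cells and less RNA per cell cannot be told apart. Separate animals are not named for the replicates, so the spread among libraries may be technical. The fit pools that spread over all groups, so each p-value of either line rests on the libraries of both lines. The spread was greatest in Mll2 KO, with a chi-square per degree of freedom between replicates of 40.7, against 13.3 in Mll2 WT. It was 6.69 under the DKO label and 4.96 in H2A.Z controls. With each line fitted alone, 43.1% of tested genes were called under the DKO label and 21.5% in Mll2 KO. The joint fit called 30.9% and 30.6%, fewer under the DKO label and more in Mll2 KO. The part of the pooling in this change was not tested.

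Mean levels of the 33 genes ran from 0.00938 to 1321 CPM per kb of exonic length (GENCODE M21). Gtsf1, a small zinc finger cofactor of PIWI slicing, stood first in every group, with means of 1321 CPM per kb under the DKO label, 1045 in H2A.Z controls, 730 in Mll2 KO and 816 in Mll2 WT. It alone took 27 to 37.8% of the members' summed CPM. Tdrd12, a Tudor helicase, came second in each group at 151, 180, 92.4 and 128 CPM per kb, followed by Henmt1, the methyltransferase of piRNA 3′ ends, and Asz1, a germ granule protein at mitochondria. The PIWI proteins themselves were low. Piwil1 averaged 2.44 CPM per kb under the DKO label, 1.13 in H2A.Z controls, 5.13 in Mll2 KO and 3.33 in Mll2 WT, and Piwil2 stayed between 0.128 and 0.340. Piwil4 had 7 and 7 counts under the DKO label against 1 and 6 in H2A.Z controls, and 2 and 1 counts in Mll2 KO against 0 and 4 in Mll2 WT, and was the only member left out by the filter. Among the small RNA carriers, the group means of Ago1, Ago4, Piwil2 and Piwil4 lay between 0.00938 and 0.340 CPM per kb.

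**Figure D1:**
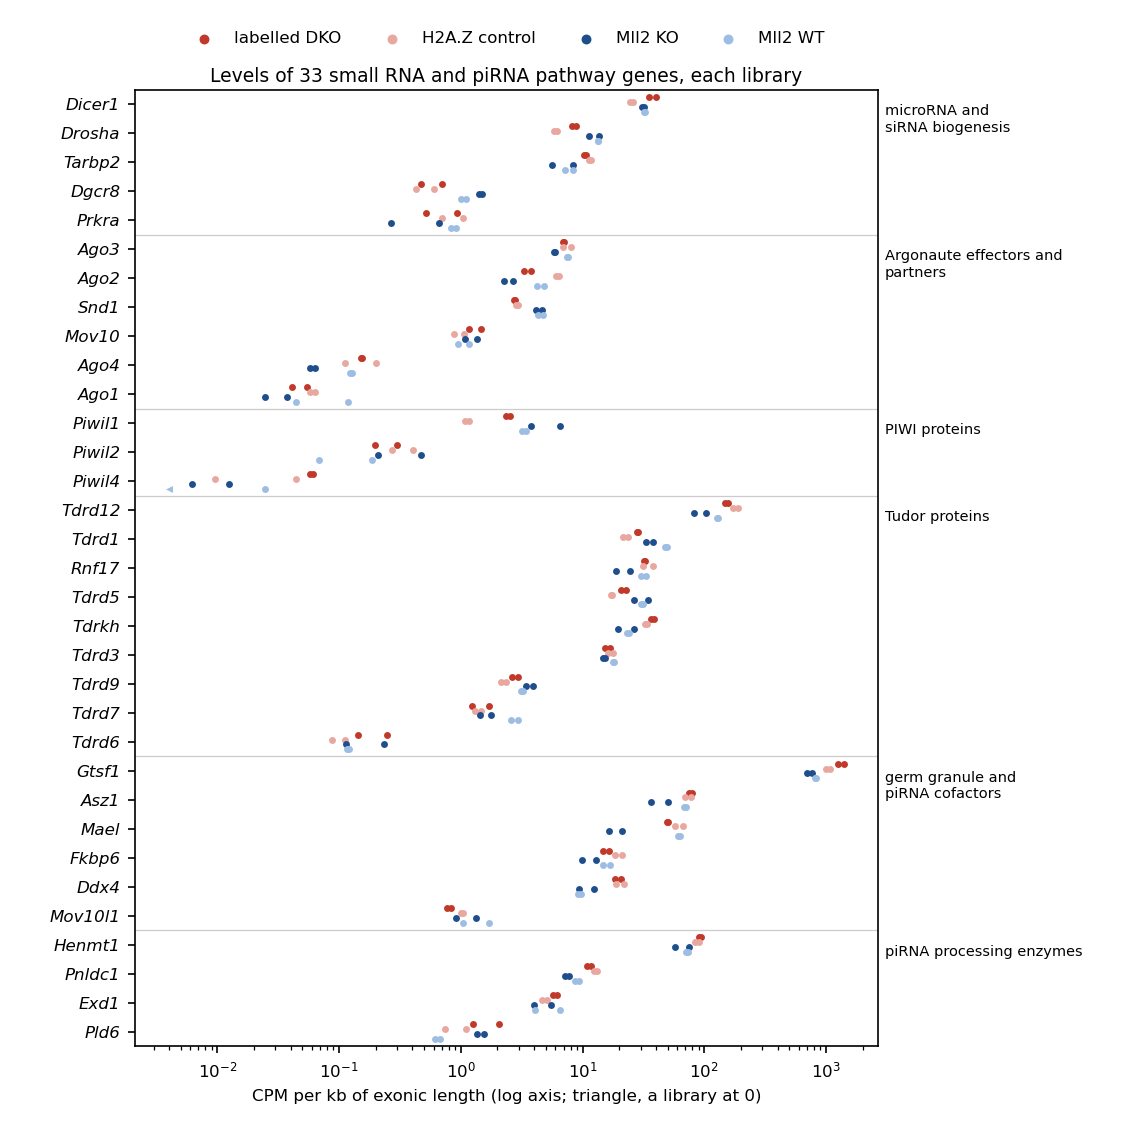
Levels of the 33 members in CPM per kb of exonic length on a log axis, 1 point per library, coloured by group and ordered by role. Gtsf1 stands highest in every group and Piwil4, Ago1 and Ago4 lowest of their roles, with a library at 0 drawn as a triangle at the left edge.

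The Mll2 KO comparison called 12 of 32 tested members, 3 higher and 9 lower. Over all tested genes 30.6% were called, 14.4% higher and 16.2% lower. The members' share was 37.5%, and their median log2 fold change was -0.16, against 0.02 over all tested genes. Scaled by library size alone, the members divided 3 higher and 7 lower, and of all called genes 62.9% were higher, against 47.1% with the scaling used. The count lower was 6 to 13 with any single library left out. The count higher was 1 without H2A.Z control 1 or 2, DKO 1 or 2, Mll2 WT 2 or Mll2 KO 2, and 0 without Mll2 WT 1. The decreases lay among Argonautes, Tudor proteins and germ granule cofactors, and the increases were those of Piwil1, Piwil2 and Pld6. Separation of both KO libraries from both WT libraries was not confined to called members. Among members not called, KO lay below WT for Gtsf1, Tdrd3, Pnldc1, Prkra, Ago1 and Ago4, and above for Dgcr8 and Tdrd9. The share of such separation over all genes was not computed.

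**Figure D2:**
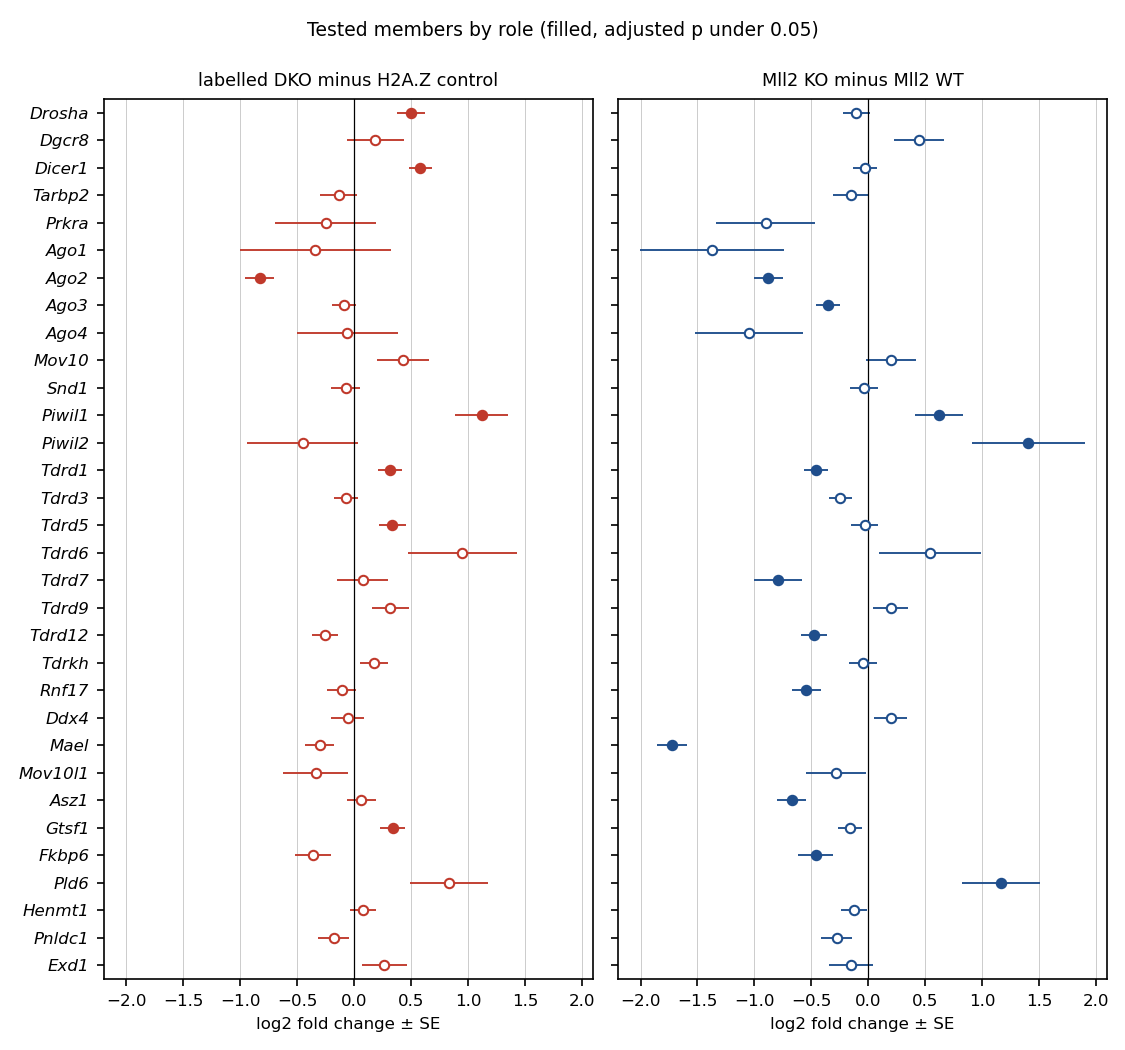
Log2 fold change with SE of the 32 tested members, ordered by role, for libraries labelled DKO against H2A.Z controls (left) and Mll2 KO against Mll2 WT (right). Filled points passed an adjusted p under 0.05, and Mael in Mll2 KO lies farthest from 0, at -1.72.

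Mael, the maelstrom protein of germ granules needed for retrotransposon silencing in mouse testis, fell most among the tested members. It measured 36.8 and 28.5 CPM in Mll2 KO oocytes, against 106 and 109.6 CPM in Mll2 WT (log2 -1.72 ± 0.13 SE, edgeR adjusted p = 1.08e-07). Both KO libraries were far below both WT libraries, at a fitted fold of 0.303, and the call held in all 14 alternatives. Among the 33 members ranked per kb, it stood at 10 in Mll2 KO and at 5 in Mll2 WT. Mael lies at chr1:166201201-166238747 and Asz1 at chr6:18050964-18109061 on mm10, both on the minus strand, and neither shares exonic bases with another annotated gene. Asz1, which tethers germ granules to mitochondria, measured 143 and 104 CPM in Mll2 KO, against 195 and 201 CPM in Mll2 WT (log2 -0.67 ± 0.13, adjusted p = 0.00113). The groups did not overlap and the call held in all 14 alternatives, though the KO libraries differed more from each other than the WT libraries did. Fkbp6, a co-chaperone of PIWI loading, measured 17.4 and 22.8 CPM in Mll2 KO, against 25.8 and 29.6 CPM in Mll2 WT (log2 -0.46 ± 0.16, adjusted p = 0.0347). This call was fragile: it was lost in 10 of 14 alternatives, which include leaving out any library but Mll2 KO 2, and its log2 value was -0.27 without Mll2 KO 1 (adjusted p = 0.148) and -0.71 without Mll2 KO 2 (adjusted p = 0.00102, with p up to 0.247 over all alternatives). The helicase gene Ddx4 and the upstream helicase gene Mov10l1 did not pass, with log2 differences of 0.20 ± 0.15 and -0.28 ± 0.26. Ddx4 passed, higher, without Mll2 KO 2 (log2 0.35, adjusted p = 0.0407). Gtsf1 did not pass either, at 1057 and 972 CPM in Mll2 KO against 1118 and 1150 CPM in Mll2 WT (log2 -0.16 ± 0.11, adjusted p = 0.273).

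Tudor proteins bind the methylated arginines of PIWI proteins and assemble germ granules. Of 9 tested, 4 fell in Mll2 KO and 0 rose, where 16.2% of all tested genes fell and 14.4% rose. Tdrd1, the scaffold that binds Piwil2, measured 179 and 206 CPM in Mll2 KO, against 259 and 271 CPM in Mll2 WT (log2 -0.46 ± 0.10, adjusted p = 0.00339). Tdrd12 measured 446 and 355 CPM in Mll2 KO, against 551 and 562 CPM in Mll2 WT (log2 -0.47 ± 0.12, adjusted p = 0.00592). Rnf17, a RING and Tudor protein that restrains piRNA amplification in testis, measured 154 and 118 CPM in Mll2 KO, against 189 and 208 CPM in Mll2 WT (log2 -0.54 ± 0.13, adjusted p = 0.00504). The KO libraries lay below the WT libraries for each of these genes, and each call held in all 14 alternatives. Tdrd7, a Tudor protein of germ granules, was less abundant, with 6.98 and 5.65 CPM in Mll2 KO against 10.1 and 11.7 CPM in Mll2 WT (log2 -0.79 ± 0.21, adjusted p = 0.01, and 0.0946 without Mll2 WT 2). Tdrd3, which reads methylated arginines outside the piRNA pathway as well, did not pass at a log2 difference of -0.24 ± 0.10 (adjusted p = 0.0868). Tdrd5, Tdrd6, Tdrd9 and Tdrkh did not pass, with log2 differences from -0.05 to 0.54. Tdrd3 and Tdrkh passed, lower, without Mll2 KO 1 (adjusted p = 0.0399 and 0.0177), and Tdrd5 without Mll2 KO 2 (adjusted p = 0.0313).

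Ago2, the Argonaute with RNA slicing activity (chr15:73095844-73184935, minus strand, mm10), fell in both lines. It measured 37.9 and 31.7 CPM in Mll2 KO, against 68.3 and 59.8 CPM in Mll2 WT (log2 -0.88 ± 0.13, adjusted p = 0.000105). In the libraries labelled DKO it measured 46.3 and 52.8 CPM, against 90.1 and 85.8 CPM in H2A.Z controls (log2 -0.83 ± 0.13, adjusted p = 0.00021). Neither pair of groups overlapped, both calls held in all 14 alternatives, and the difference between the effects was 0.05 ± 0.18 (adjusted p = 0.877). Ago3 measured 99 and 96.7 CPM in Mll2 KO, against 124 and 126 CPM in Mll2 WT (log2 -0.36 ± 0.11, adjusted p = 0.018). That call was lost without Mll2 WT 1 or 2 (adjusted p = 0.081 and 0.0842) and with the Mll2 line fitted alone or library size alone (adjusted p = 0.0654 and 0.087). Under the DKO label Ago3 measured 115 and 117 CPM, against 133.5 and 114 CPM in H2A.Z controls, and did not pass (log2 -0.09 ± 0.11). It passed, lower, with the H2A.Z line fitted alone and without Mll2 KO 1 or 2 (adjusted p from 0.0332 to 0.892 over its alternatives). Ago1 and Ago4 measured at most 1.40 CPM in any library and did not pass in either comparison, with log2 differences of -1.37 ± 0.63 and -1.05 ± 0.47 in Mll2 KO. The RISC partners Snd1, a Tudor nuclease, and Mov10, a helicase, did not pass in either line.

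Per kb of exonic length, Ago3 and Ago2 made up nearly all Argonaute transcripts. Ago2 took 31.6 and 34.1% of the summed Argonaute level under the DKO label, against 43.9 and 46.2% in H2A.Z controls. In the Mll2 line it took 30.8 and 27.7% in KO, against 38.6 and 35.4% in WT. The share was lower in both libraries labelled DKO than in both H2A.Z controls, and lower in both Mll2 KO libraries than in both Mll2 WT libraries. The ratio of Ago3 to Ago2 per kb was 2.10 and 1.88 under the DKO label against 1.25 and 1.12 in H2A.Z controls, and 2.21 and 2.58 in Mll2 KO against 1.54 and 1.79 in Mll2 WT. Exonic length here is the union of annotated exons, so these shares depend on the annotated ends of each gene.

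**Figure D3:**
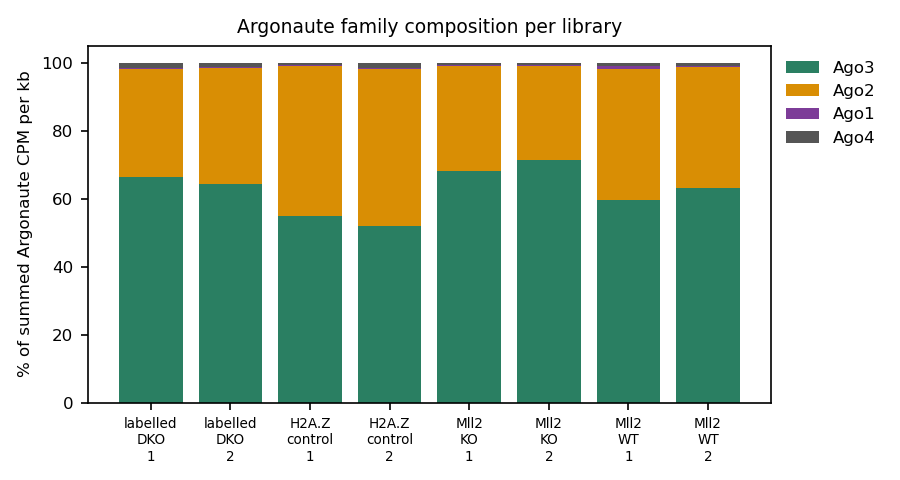
Share of each Argonaute gene in the summed Argonaute level (CPM per kb, %) in each of the 8 libraries. Ago2 takes 27.7 to 34.1% in the libraries labelled DKO and Mll2 KO and 35.4 to 46.2% in the control libraries.

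Piwil1, Piwil2 and Pld6 were the members called higher in Mll2 KO, and Piwil4 was not tested. Pld6, the mitochondrial phospholipase family protein of piRNA 5′ end formation, measured 2.39 and 2.72 CPM in Mll2 KO, against 1.19 and 1.09 CPM in Mll2 WT (log2 1.16 ± 0.34, adjusted p = 0.017). The call was lost without Mll2 WT 1 or 2 or Mll2 KO 2 (adjusted p = 0.0723, 0.121 and 0.0602). Piwil1 measured 16.4 and 28.3 CPM in Mll2 KO, against 15 and 14 CPM in Mll2 WT (log2 0.62 ± 0.21, adjusted p = 0.0347). This call rested on 1 library: without Mll2 KO 2 the log2 value was 0.14 (adjusted p = 0.61), without Mll2 KO 1 it was 0.97 (adjusted p = 4.3e-05). It was also lost, with adjusted p from 0.0526 to 0.207, without any single other library. Piwil2 measured 1.11 and 2.49 CPM in Mll2 KO, against 0.364 and 0.989 CPM in Mll2 WT (log2 1.41 ± 0.50, adjusted p = 0.0416). Its log2 value was 0.85 without Mll2 WT 1, 2.28 without Mll2 WT 2 and 0.67 without Mll2 KO 2 (adjusted p = 0.297, 0.0271 and 0.402), and the call was lost without any single library of the H2A.Z line as well (adjusted p from 0.0541 to 0.0557). The remaining processing enzymes did not pass in Mll2 KO: Henmt1, the trimming nuclease gene Pnldc1 and Exd1, which acts with Tdrd12, had log2 differences of -0.12, -0.28 and -0.15. Without Mll2 KO 1, Henmt1 passed at -0.30 (adjusted p = 0.00869).

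Of the 5 microRNA and siRNA biogenesis genes, 0 passed in Mll2 KO, whereas 2 rose and 0 fell under the DKO label. Of all tested genes 30.6% were called in Mll2 KO, and under the DKO label 19.4% rose and 11.5% fell. The Mll2 KO comparison gave log2 differences from -0.90 ± 0.44 for Prkra, a partner of Dicer, to 0.45 ± 0.22 for Dgcr8. Without Mll2 KO 1, Prkra and Tarbp2 passed, lower (log2 -1.70 and -0.46, adjusted p = 0.0113 and 0.00585), and without Mll2 KO 2 Drosha did (log2 -0.30, adjusted p = 0.044). Dicer1 measured 538 and 519 CPM in Mll2 KO, against 544 and 535 CPM in Mll2 WT (log2 -0.03 ± 0.10, adjusted p = 0.852). Under the DKO label Dicer1 rose to 590.3 and 674 CPM, against 432 and 411 CPM in H2A.Z controls (log2 0.58 ± 0.10, adjusted p = 0.000604). Drosha, the nuclear microRNA nuclease, measured 52.6 and 48.8 CPM under the DKO label, against 34.9 and 36.7 CPM in H2A.Z controls (log2 0.50 ± 0.12, adjusted p = 0.00625). The groups did not overlap for either gene. In Mll2 KO, Drosha measured 67 and 81.6 CPM, against 79.8 and 80.1 CPM in Mll2 WT, and these groups overlapped (log2 -0.11 ± 0.12, adjusted p = 0.535). Dicer1 lies at chr12:104687742-104751952 on the minus strand and Drosha at chr15:12824815-12935291 on the plus strand (mm10). The Dicer1 call held in all 14 alternatives, and that of Drosha was lost without H2A.Z control 1, DKO 1 or Mll2 WT 2 (adjusted p = 0.0648, 0.0683 and 0.0619). Its nuclear partner Dgcr8 and the Dicer partners Tarbp2 and Prkra did not pass under the DKO label, with log2 differences of 0.19, -0.14 and -0.25. Dgcr8 shares 10.7% of its exonic length with Trmt2a on the other strand, and reads there cannot be assigned with certainty.

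Under the DKO label 7 of 32 tested members were called (21.9%), 6 higher and 1 lower. Over all tested genes 30.9% were called, 19.4% higher and 11.5% lower. The members' median log2 fold change was 0.003, which is 0.12 below the median of all tested genes, 0.12. That all-gene median moved to 0.002 with library size alone, where 3 members were higher and 4 lower and 45.5% of all called genes were higher, against 62.9% with the scaling used. The count higher was 2 or 3 without any single library of the H2A.Z line and 2 without Mll2 WT 2. With the H2A.Z line fitted alone 6 members were higher and 8 lower, when Tarbp2, Ago3, Tdrd12, Rnf17, Mael, Fkbp6 and Pnldc1 joined Ago2. That fit also called more of all genes, 43.1% of the 15721 it tested, with 3292 higher and 3485 lower.

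Besides Dicer1 and Drosha, the members higher under the DKO label were Piwil1, Gtsf1, Tdrd1 and Tdrd5. Piwil1, a testis PIWI protein of meiotic and later germ cells, measured 11 and 10.3 CPM under the DKO label, against 5.12 and 4.70 CPM in H2A.Z controls (log2 1.12 ± 0.24, 2.17-fold, adjusted p = 0.00229), and held in all 14 alternatives. Gtsf1 measured 1730 and 1943 CPM under the DKO label, against 1505 and 1402 CPM in H2A.Z controls (log2 0.34 ± 0.11, adjusted p = 0.0251). Tdrd1 measured 155 and 151 CPM, against 128 and 118 CPM in H2A.Z controls (log2 0.32 ± 0.10, adjusted p = 0.03). Tdrd5, a Tudor and LOTUS protein, measured 158 and 143 CPM, against 121 and 118 CPM in H2A.Z controls (log2 0.33 ± 0.12, adjusted p = 0.0431). For each of these genes both DKO libraries lay above both controls. Relative to the median log2 fold change of all genes, Gtsf1, Tdrd1 and Tdrd5 were higher by 0.21, 0.19 and 0.21. The Tdrd1 and Tdrd5 calls were lost without any single library of the H2A.Z line or of Mll2 WT, with adjusted p from 0.0524 to 0.239 and from 0.0643 to 0.271. Both were also lost with relative log expression factors (adjusted p = 0.0638 and 0.0862), library size alone (0.175 and 0.217) and DESeq2 (0.0749 and 0.105). That of Gtsf1 was lost without any single library of the H2A.Z line or Mll2 WT 2, with adjusted p from 0.0607 to 0.248, with library size alone (adjusted p = 0.0943) and with the replicate block (adjusted p = 0.0629). Without Mll2 WT 2, Mll2 KO 1 or Mll2 KO 2 the log2 values were 0.22 each for Gtsf1, 0.19 each for Tdrd1 and 0.21 each for Tdrd5.

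Mael measured 87.6 and 86.4 CPM under the DKO label, against 115 and 99.5 CPM in H2A.Z controls, and did not pass (log2 -0.30 ± 0.13, adjusted p = 0.078). It passed in 7 of 14 alternatives, including the H2A.Z line fitted alone (adjusted p from 8.3e-05 to 0.452). Tdrd12 measured 674 and 638 CPM under the DKO label, against 817 and 747 CPM in H2A.Z controls (log2 -0.25 ± 0.12, adjusted p = 0.109), and passed in 6 of 14 alternatives. Both DKO libraries lay below both controls for Mael and Tdrd12. The same held for Tarbp2, Ago1, Snd1, Mov10l1, Fkbp6 and Pnldc1, which did not pass either. Both lay above both controls for Mov10, Tdrd6, Tdrd9, Tdrkh, Pld6, Henmt1 and Exd1, which also did not pass. Such separation of 2 libraries from 2 was thus not confined to called members, and its share over all genes was not computed. Asz1, Rnf17, Ddx4, Henmt1 and Tdrkh, a mitochondrial Tudor protein of piRNA trimming, did not pass, with log2 differences from -0.11 to 0.18. Tdrkh shares 36.7% of its exonic length with Oaz3 on the other strand and Henmt1 14.7% with Gm9857, and the kit is not stated to keep strand, so these counts are uncertain. Pld6 measured 2.22 and 3.65 CPM under the DKO label, against 1.29 and 1.95 CPM in H2A.Z controls, and missed the threshold (log2 0.84 ± 0.34, adjusted p = 0.0754).

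**Figure D4:**
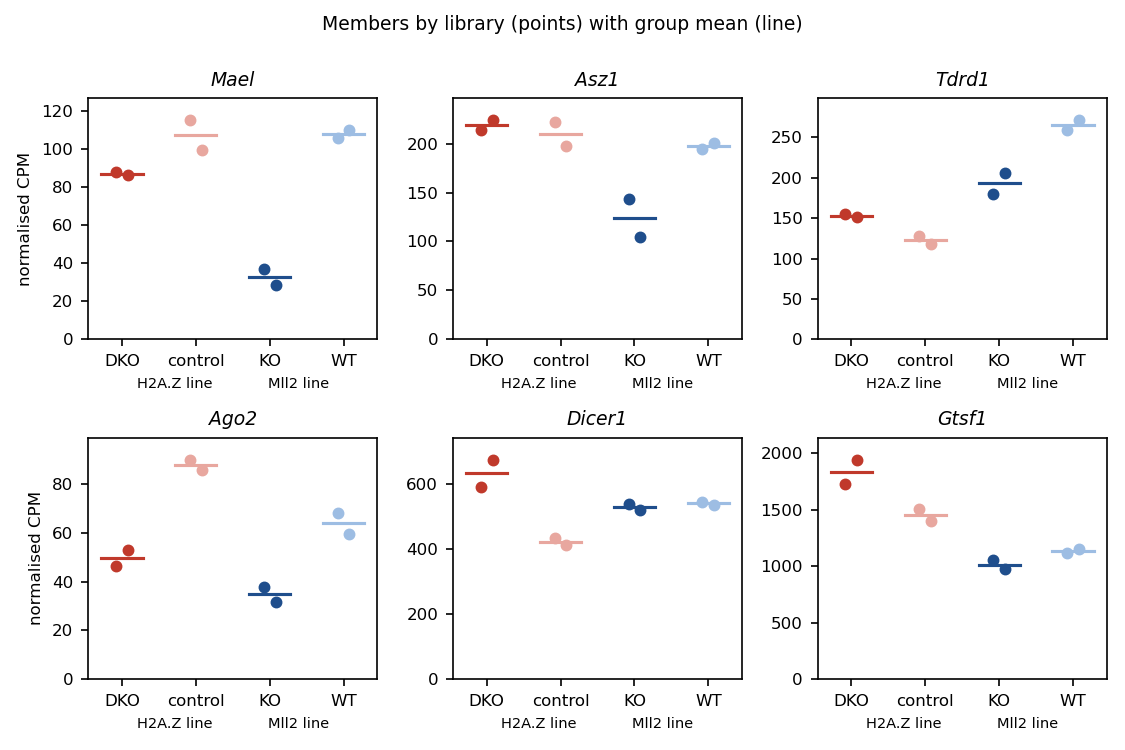
Normalised CPM of 6 members in each library (points) with the group mean (line), each axis from 0. Ago2 lies lower in the libraries labelled DKO and in Mll2 KO than in their controls, Mael and Asz1 are low in Mll2 KO, and Dicer1 and Gtsf1 are high under the DKO label.

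The members called in both comparisons were 3: Ago2 and Piwil1 in the same direction and Tdrd1 in opposite directions. The Tdrd1 call under the DKO label was lost in 9 of 14 alternatives, and the Piwil1 call in Mll2 KO in 8 of 14. These 3 members make up 42.9% of the members called under the DKO label and 25% of those called in Mll2 KO. Over all tested genes, the shared calls were 40.9% of those under the DKO label and 41.3% of those in Mll2 KO. Of these shared calls 81.2% had the same direction in both lines as labelled. These directions are those of the DKO label, which H2afz and H2afv go against. For both genes the H2A.Z controls lay closer to Mll2 WT than the libraries labelled DKO did. An exchange of the label was not tested. With that label exchanged Tdrd1 would be lower in both lines, and Ago2 and Piwil1 would have opposite signs. Over all tested genes, the 1728 shared calls with the same direction as labelled would then be opposite. The 400 with opposite directions as labelled would then be the same. Whether an effect differed between the lines was tested as the effect under the DKO label minus that in Mll2 KO. The size and sign of each difference thus also rest on the DKO label, and no fit with that label exchanged was made. The test called 6 of 32 members (18.8%), 6 higher and 0 lower, against 19.5% of all tested genes (12.9% higher, 6.68% lower). Mael differed by 1.42 ± 0.18 on the log2 scale (adjusted p = 5.81e-05) and Tdrd1 by 0.78 ± 0.15 (adjusted p = 0.00171), and both held in all 13 alternatives. Dicer1 differed by 0.61 ± 0.14 (adjusted p = 0.00773, and 0.058, 0.0683 and 0.0559 without H2A.Z control 2, DKO 2 or Mll2 WT 2). Asz1 differed by 0.74 ± 0.18 (adjusted p = 0.00998, and 0.0711, 0.0541 and 0.0668 without the same libraries), and by 0.45 without Mll2 KO 2. With library size alone both were lost (adjusted p = 0.0664 for Dicer1 and 0.0566 for Asz1). Drosha and Gtsf1 differed by 0.61 ± 0.17 and 0.50 ± 0.15 (adjusted p = 0.0208 and 0.0296). These were lost in 7 and 8 of 13 alternatives. For Drosha these include leaving out any single library but DKO 2 and Mll2 KO 2, with adjusted p from 0.0645 to 0.168 and a log2 value of 0.34 without Mll2 KO 1. For Gtsf1 they include any single library of the H2A.Z line or Mll2 WT, with adjusted p from 0.0585 to 0.168. The count was 2 or 3 without H2A.Z control 2, DKO 2 or Mll2 WT 2, and with library size alone 2 members were higher and 1 lower, when 37% of all called genes were higher and not 65.8%.

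Other genes of these pathways were read from lists chosen with earlier results of these data known. Of 24 other microRNA and siRNA pathway genes, all tested, 2 rose and 7 fell in Mll2 KO, and 8 rose and 4 fell under the DKO label. These are 37.5% and 50% of the list, against 30.6% and 30.9% of all tested genes. Their median log2 fold changes were 0.03 and 0.22, against 0.02 and 0.12 over all tested genes. Trim71, a ubiquitin ligase that binds Argonautes, fell in both lines, with 79.1 and 48.6 CPM in Mll2 KO against 179 and 163.5 CPM in Mll2 WT (log2 -1.42 ± 0.17, adjusted p = 6.53e-05). Under the DKO label it measured 109 and 124 CPM, against 253 and 237 CPM in H2A.Z controls (log2 -1.07 ± 0.17, adjusted p = 0.000611). Hsp90ab1, a chaperone gene of Argonaute loading, fell by 0.69 in Mll2 KO and 0.67 under the DKO label (adjusted p = 0.000201 and 0.000322). Ddx17, a helicase of the Drosha complex, went in opposite directions: 5.80 and 9.11 CPM in Mll2 KO against 13.2 and 14.4 CPM in Mll2 WT, whereas the libraries labelled DKO had 16.1 and 14 CPM against 6.72 and 7.57 CPM in H2A.Z controls. Its log2 values were -0.89 ± 0.21 and 1.07 ± 0.21, and the difference of 1.96 ± 0.30 passed (adjusted p = 0.000314). The Mll2 KO call for Ddx17 was lost without Mll2 WT 2 (adjusted p = 0.0503).

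Tnrc6c, a GW182 protein that binds Argonautes, rose by 0.71 ± 0.14 under the DKO label (adjusted p = 0.00179). The translin gene Tsn and the helicase gene Ddx5 rose by 0.40 ± 0.10 and 0.42 ± 0.11 there. These calls were lost without H2A.Z control 2, DKO 2 or Mll2 WT 2 for Tsn (adjusted p = 0.0673, 0.0592 and 0.0623), and for Ddx5 without H2A.Z control 1 or 2, DKO 1 or Mll2 WT 2 (adjusted p = 0.0521, 0.1, 0.123 and 0.0954). Prmt5, the arginine methyltransferase whose marks Tudor domains read, fell by 0.82 ± 0.24 (adjusted p = 0.0164), which was lost without H2A.Z control 1 or 2 or DKO 2 (adjusted p = 0.0529, 0.122 and 0.138). The terminal uridylyltransferase gene Zcchc11 rested on 5 counts under the DKO label against 33 in H2A.Z controls, a ratio of 0.154 (exact binomial 95% interval 0.047 to 0.398, counting error only). It passed (adjusted p = 0.0197) but not without any single library of the H2A.Z line (adjusted p from 0.0769 to 0.14). In Mll2 KO, Hsp90aa1 fell by 0.53 ± 0.11 (adjusted p = 0.00159), Srrt, which links capped RNA to Drosha, rose by 0.89 ± 0.20 (adjusted p = 0.00308), and the co-chaperone gene Fkbp4 rose by 0.51 ± 0.16 (adjusted p = 0.0252, and 0.123 and 0.153 without Mll2 WT 1 or 2).

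Of 20 other genes listed with the piRNA pathway, not all with an established part in it, 19 were in the table and 15 tested. In Mll2 KO 4 rose and 6 fell, and under the DKO label 0 rose and 2 fell, with medians of -0.06 and 0.08. The shares called were 66.7% and 13.3%, against 30.6% and 30.9% of all tested genes. Tex15, required for piRNA-guided DNA methylation in mouse testis, fell most, with 9.81 and 6.39 CPM in Mll2 KO against 191 and 249 CPM in Mll2 WT (log2 -4.76 ± 0.20, adjusted p = 2.46e-09). Under the DKO label Tex15 measured 188 and 167 CPM, against 228 and 186 CPM in H2A.Z controls (log2 -0.22 ± 0.17, adjusted p = 0.342), and the difference between the lines passed (log2 4.54 ± 0.26, adjusted p = 2.23e-07). Stk31, a Tudor and kinase domain gene, measured 79.8 and 69.1 CPM in Mll2 KO, against 159 and 202 CPM in Mll2 WT (log2 -1.28 ± 0.13, adjusted p = 3.42e-06). Morc1, a retrotransposon-silencing ATPase gene, and Ddx25, a germ granule helicase gene, fell by 0.71 ± 0.11 and 0.57 ± 0.12 in Mll2 KO (adjusted p = 0.000272 and 0.00234). The Stk31 and Morc1 effects also differed between the lines (log2 1.27 ± 0.18 and 0.99 ± 0.16, adjusted p = 0.000195 and 0.000545). The other direction held Tex19.1, a germline retrotransposon-repression gene, with 125.3 and 125 CPM in Mll2 KO against 66.7 and 67.2 CPM in Mll2 WT (log2 0.90 ± 0.11, adjusted p = 3.12e-05).

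Gpat2, Adad2 and Mybl1, the transcription factor gene of pachytene piRNA clusters, rose in Mll2 KO by 1.51 ± 0.39, 1.22 ± 0.34 and 0.59 ± 0.19 on the log2 scale (adjusted p = 0.00824, 0.0121 and 0.0256). The first and second were lost without Mll2 WT 2 (adjusted p = 0.115 and 0.133). Mybl1 was lost without Mll2 WT 1, Mll2 WT 2 or Mll2 KO 2 (adjusted p = 0.13, 0.142 and 0.27). Under the DKO label the 2 that fell were the kinesin gene Kif17 (log2 -0.39 ± 0.10, adjusted p = 0.00943) and Tdrp (log2 -0.39 ± 0.14, adjusted p = 0.0481). Kif17 was lost without H2A.Z control 1 or 2 or DKO 1 (adjusted p = 0.0712, 0.0711 and 0.133), and Tdrp without H2A.Z control 1 or 2, DKO 2 or Mll2 WT 1 (adjusted p = 0.316, 0.0749, 0.362 and 0.0716).

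**Figure D5:**
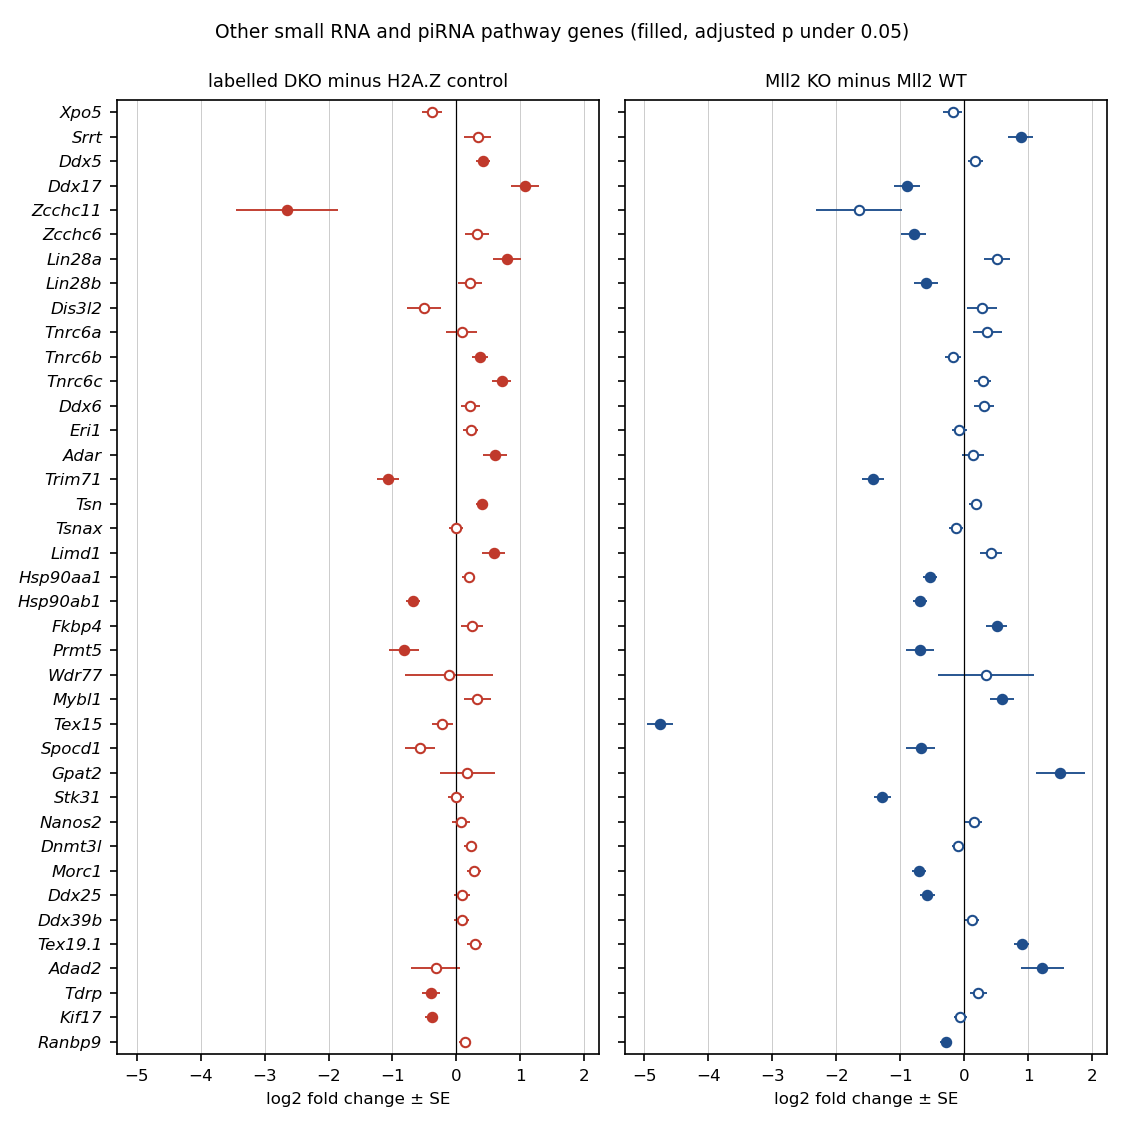
Log2 fold change with SE of the 39 tested genes of the other small RNA and piRNA lists, for libraries labelled DKO against H2A.Z controls (left) and Mll2 KO against Mll2 WT (right). Filled points passed an adjusted p under 0.05, and Tex15 in Mll2 KO lies farthest from 0, at -4.76.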

How the data were processed

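Polyadenylated RNA of 8 oocyte pools was measured. The values are whole-number raw counts per gene symbol as deposited by the authors, without normalisation. The submitters' processing notes name RSEM 1.3.1, STAR 2.7.3, Trim Galore 0.6.4 and the build mm10, with roles, annotation and any rounding of estimates not given in the sources used here. Per the labels' protocols, 200 pg of amplified cDNA entered library preparation. Samples were grouped by their titles, and no library was left out. The fit was made with edgeR 4.0.16 under R 4.3.3: filterByExpr by group, trimmed mean of M-values scaling, a single fit of 4 group means, the robust quasi-likelihood test and Benjamini-Hochberg adjustment over 16847 genes, called under 0.05. The SE comes from the F statistic. The code was tested on simulated data. Alternatives, fitted in edgeR and DESeq2 1.42.0, are given at the end. Counting error is small at these depths except for members with few counts.

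All members could be named. Of the 2 other lists, up to 4 called genes per comparison and direction with the smallest p are named. The members and lists were chosen with earlier results of these data known. Replicate numbers were not used as pairs. Exonic lengths are unions of GENCODE M21 exons, matched by symbol for 33 of 33 members, and promoters are from RefSeq, both on GRCm38 (mm10).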

Additional observations from a re-analysis of the deposited data

Results flagged for a closer look

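The effects of the labelled DKO and of Mll2 KO differed past the threshold, by the test of the difference itself, for 6 members. The log2 differences, effect under the DKO label minus effect in Mll2 KO, were 1.42 for Mael, 0.78 for Tdrd1, 0.61 for Dicer1, 0.74 for Asz1, 0.61 for Drosha and 0.50 for Gtsf1. For Mael the effects were -0.30 under the DKO label and -1.72 in Mll2 KO, and for Asz1 0.06 and -0.67. For Tdrd1 they were 0.32 and -0.46, so the signs were opposite as labelled and each passed its own test. The Tdrd1 call under the DKO label was lost in 9 of 14 alternatives, whereas that in Mll2 KO held in all 14. H2afz and H2afv go against the DKO label, and with it exchanged both Tdrd1 effects would be negative. For Dicer1 they were 0.58 and -0.03, for Drosha 0.50 and -0.11, and for Gtsf1 0.34 and -0.16.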

How the results depend on the processing

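The 14 alternatives were library size alone, relative log expression factors, DESeq2, no filter on low counts, each line fitted alone, the replicate block, and each of the 8 libraries left out in turn. A group left with 1 library was assumed to vary like the others. The count of members higher under the DKO label (6) became 3 with library size alone and 2 to 6 with a library left out. The count lower (1) became 2 with relative log expression factors, 4 with library size alone, 3 with DESeq2, 8 with the H2A.Z line alone and 1 to 8 with a library left out. In Mll2 KO the count higher (3) became 1 with the line fitted alone and 0 to 3 with a library left out, and the count lower (9) stayed within 6 to 13. The count of members that differed between the lines (6) became 3 with library size alone and 2 to 9 with a library left out, and could not be fitted with each line alone. The cause was not tested. With the replicate block the counts were 5 higher and 1 lower under the DKO label, 3 and 9 in Mll2 KO, and 6 for the difference, where Gtsf1 was lost and Piwil2 gained. Differences between replicates correlated across genes by 0.04 between the H2A.Z groups and -0.02 between the Mll2 groups, so the numbers were not taken as pairs. Over all genes, those called under the DKO label numbered 2813, 2642, 2749 and 3081 without H2A.Z control 1 or 2 or DKO 1 or 2, against 5198. In Mll2 KO they numbered 3174 and 2681 without Mll2 WT 1 or 2, and in the difference between lines 2182, 1639, 1924, 2040 and 1733 when H2A.Z control 1, H2A.Z control 2, DKO 1, DKO 2 and Mll2 WT 2 were left out in turn, against 5158 and 3291. No member changed sign while called. Few counts limit Ago1, Ago4, Piwil2, Piwil4, Tdrd6, Prkra and Pld6.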

Other observations

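The control libraries of the lines lay at different levels for some members, of which examples are given. This was not tested, and its share over all genes was not computed. Line, strain and batch cannot be told apart between these controls. Tdrd1 stood at 259 and 271 CPM in Mll2 WT, whereas H2A.Z controls had 128 and 118 CPM. Tdrd5 stood at 212 and 220 CPM in Mll2 WT, whereas H2A.Z controls had 121 and 118 CPM. For Drosha, Mll2 WT had 79.8 and 80.1 CPM, whereas H2A.Z controls had 34.9 and 36.7 CPM. The opposite held for Ddx4, with 29.6 and 27.5 CPM in Mll2 WT, whereas H2A.Z controls had 57.1 and 65.8 CPM. For Drosha, Tdrd1 and Tdrd5 the libraries labelled DKO stayed below the Mll2 WT libraries.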
